A study of Homo sapiens with 2 samples.

Results

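The genes described here are 10 genes that build, coat or break down lipid droplets: PLIN2, PLIN3, DGAT1, DGAT2, HILPDA, PNPLA2, LIPE, G0S2, FITM2 and MGLL. They were chosen by name, and all 10 were found among the 60616 genes of the deposited tables. Their transcripts were measured by RNA-seq in HSC-3 cells, an established line of human head and neck squamous cell carcinoma (HNSCC) that came from the tongue. The cells received 1 µM FIN56 for 48 h in 1 library and the solvent, 0.1% DMSO, in the other, for which the labels give no time. FIN56 induces ferroptosis, a form of cell death driven by peroxidation of membrane lipids. The study describes the concentration given to these cells as sublethal. Both cultures were the same line in DMEM with 5% fetal bovine serum, and RNA was made into libraries with a stranded mRNA kit. With 1 library per condition, no difference has a replicate check, no p-value is given, and FIN56 cannot be told apart from any other difference between the cultures.

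Lipid droplets are stores of triglycerides and sterol esters, wrapped in a phospholipid monolayer and coated by proteins of the perilipin family. Triglycerides are made in the endoplasmic reticulum, where DGAT1 and DGAT2 add the last fatty acid, and FITM2 helps the new droplet to form. Lipolysis then proceeds in order: PNPLA2 (ATGL) removes the first fatty acid, LIPE (hormone-sensitive lipase) the next and MGLL (monoacylglycerol lipase) the last. The small proteins HILPDA and G0S2 bind and inhibit PNPLA2. Droplets can hold polyunsaturated fatty acids, the substrates of lipid peroxidation, apart from membranes.

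Levels are given as FPKM, read numbers scaled by transcript length and sequencing depth, so that genes can be compared within a library. The ratio of a gene is its FPKM with FIN56 divided by that with DMSO. Beside it stands the ratio of the expected counts, scaled by library totals of 70184517 (DMSO) and 73062209 (FIN56), with a 95% exact interval. This interval covers counting error only, and it compares 2 libraries, not 2 conditions. A ratio of 1.5 or more, a fold size taken from the study, or of 1/1.5 or less is called higher or lower. It is applied here with no minimum level except where one is named, and the calls are not the gene set of the study.

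The libraries carried the markers of a squamous epithelium, with a KRT5 FPKM of 2078 with DMSO and 1647 with FIN56 and a TP63 FPKM of 85.6 and 92.6. The 5 adipocyte markers looked at summed to an FPKM of 0.14 and 0.06, and ADIPOQ and LEP were at 0 in both libraries. The leukocyte markers PTPRC and CD3E were at 0 in both libraries. CD68, which carcinoma cells also express, accounted for most of the summed FPKM of the leukocyte markers, which was 60.9 with DMSO and 29.7 with FIN56. The 5 fibroblast markers summed to 5.10 and 2.92, most of it from COL1A1. The marker lists did not move one way: CD14 had an FPKM of 3.62 with DMSO and 5.15 with FIN56, and DCN, with 10 and 13 expected counts, 0.15 and 0.21. The part of these markers in the values of the droplet genes was not tested.

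PLIN3 was by far the most abundant of the 10 genes and PLIN2 the least. The order of levels was the same in both libraries: PLIN3, MGLL, PNPLA2, DGAT1, HILPDA, DGAT2, FITM2, LIPE, G0S2 and PLIN2. In each library 7 genes reached an FPKM of 1, and LIPE, G0S2 and PLIN2 were below 1 in both. With FIN56, 1 gene was called higher (PLIN2) and 1 lower (FITM2). Of all 24454 genes detected in both libraries (FPKM above 0), 14.7% were called higher and 17.3% lower, so the droplet genes, with 1 of 10 each way, were called no more often than genes at large. A minimum of 10 expected counts in each library kept 8 of the 10 genes, none of which was higher and 1 of which was lower, FITM2. Of all 17372 genes that met this minimum 7.62% were higher and 11.1% lower.

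**Figure D1:**
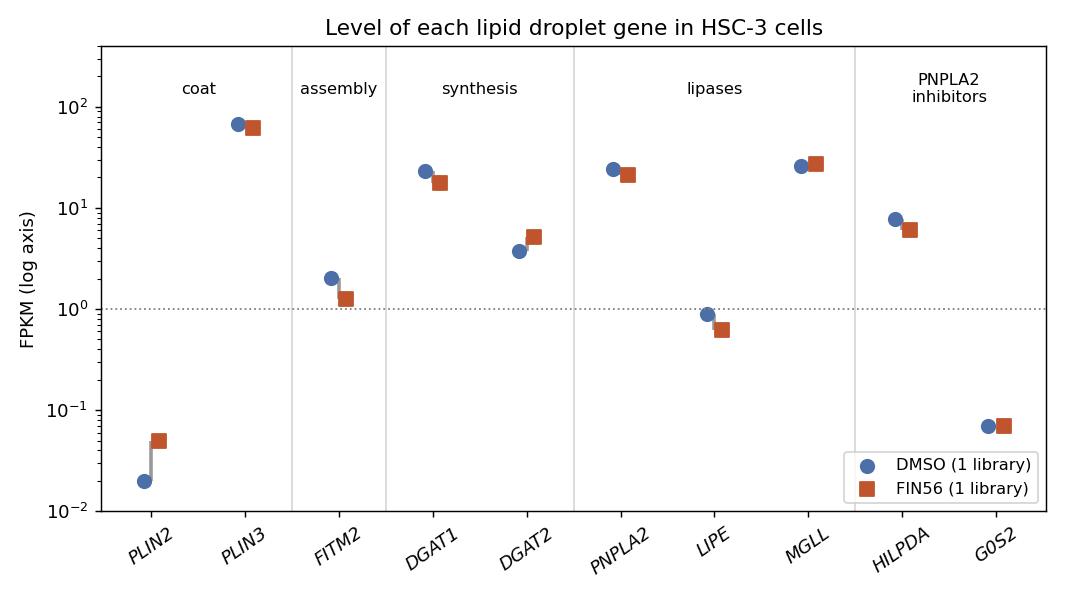
FPKM (log axis) of the 10 lipid droplet genes in the DMSO library (circles) and the FIN56 library (squares), grouped by role, with a dotted line at an FPKM of 1. PLIN3 stands highest at 67.1 and 61.1, and PLIN2 lowest at 0.02 and 0.05.

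The perilipin transcripts were almost wholly those of PLIN3, and the proteins on droplets were not measured. PLIN2 coats droplets in most cell types outside fat tissue and is commonly used as a droplet marker, whereas PLIN3 is a cytosolic perilipin that moves onto new droplets. PLIN2 (ENSG00000147872; chromosome 9, 19108375 to 19149290, minus strand, GRCh38) had 3 expected counts with DMSO and 7 with FIN56, an FPKM of 0.02 and 0.05. Its FPKM ratio of 2.50 passed 1.5, but its count ratio of 2.24 had an interval of 0.512 to 13.4, so no difference was detectable at this depth. PLIN3 (ENSG00000105355; chromosome 19, 4838341 to 4867694, minus strand) had 9909 and 9364 expected counts, an FPKM of 67.1 and 61.1. Its FPKM ratio was 0.91, and its count ratio of 0.908 had an interval of 0.882 to 0.934. The 5 perilipins together had an FPKM of 67.3 with DMSO and 61.3 with FIN56, of which PLIN3 made up 99.6% and 99.7%. PLIN1 and PLIN4, the perilipins typical of adipocytes, and PLIN5, that of oxidative tissue, stood at an FPKM of at most 0.12 in either library.

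The near absence of PLIN2 transcripts was seen in both libraries and was not shared by most genes beside it. The following values were looked up after the level of PLIN2 had been seen, and they cover the protein-coding genes whose annotated start lies within 500 kb of that of PLIN2. HAUS6, a subunit of the augmin complex of the spindle and the nearest of these genes, had an FPKM of 14.2 with DMSO and 16.7 with FIN56. On the other side DENND4C, a regulator of vesicle traffic, had 8.57 and 7.45. RPS6, a protein of the small ribosomal subunit, had 2141 and 1543. RRAGA, a GTPase of amino acid sensing, had 38.9 and 38.6, and ACER2, a ceramidase of the Golgi, 1.96 and 2.45. SAXO1, a microtubule protein of cilia and sperm, was near 0 like PLIN2, with an FPKM of 0.01 with DMSO and listed at 0 with FIN56. HAUS6 and DENND4C, on either side of PLIN2, thus gave at least 2743 expected counts in libraries in which PLIN2 gave at most 7. DNA copy number and methylation were not measured here, and why PLIN2 was near 0 was not tested.

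**Figure D2:**
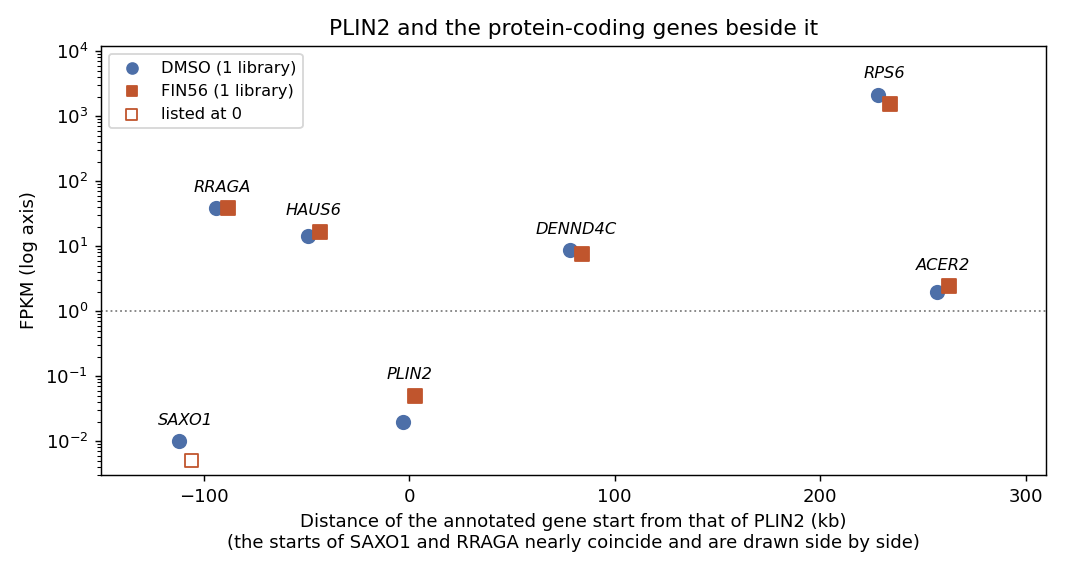
FPKM (log axis) of PLIN2 and the protein-coding genes within 500 kb, against the distance of their annotated starts in kb, with DMSO as circles and FIN56 as squares (an open square is a value listed at 0). HAUS6 and DENND4C, to either side, lie between 7.45 and 16.7, while PLIN2 lies at 0.02 and 0.05.

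The promoters of PLIN2 and PLIN3 are shown because these related genes had such different levels, and that of FITM2 because it was the well-counted member called lower. Each is the 250 bases before the transcription start, from RefSeq on GRCh38.p14, written 5′ to 3′ on the strand of the gene. Capitals mark 4 short motifs, each read on either strand. They are the core of the hypoxia response element, spelled ACGTG, the box of the factor NF-Y, spelled CCAAT, the box bound by Sp1 and its relatives, spelled GGGCGG, and the box of the TATA-binding protein, spelled TATAAA. The regions are chr9:19127493-19127742 for PLIN2, chr19:4867668-4867917 for PLIN3 and chr20:44311203-44311452 for FITM2, all on the minus strand.
PLIN2: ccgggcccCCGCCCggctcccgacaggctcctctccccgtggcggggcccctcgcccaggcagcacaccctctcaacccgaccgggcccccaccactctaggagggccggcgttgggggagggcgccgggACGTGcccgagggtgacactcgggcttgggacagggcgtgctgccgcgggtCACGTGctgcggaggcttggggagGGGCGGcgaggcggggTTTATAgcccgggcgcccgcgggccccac
PLIN3: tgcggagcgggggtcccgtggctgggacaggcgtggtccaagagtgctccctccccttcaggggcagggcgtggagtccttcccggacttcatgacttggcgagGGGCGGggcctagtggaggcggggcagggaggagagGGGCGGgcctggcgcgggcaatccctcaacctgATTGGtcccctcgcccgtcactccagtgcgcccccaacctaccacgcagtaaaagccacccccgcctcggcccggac
FITM2: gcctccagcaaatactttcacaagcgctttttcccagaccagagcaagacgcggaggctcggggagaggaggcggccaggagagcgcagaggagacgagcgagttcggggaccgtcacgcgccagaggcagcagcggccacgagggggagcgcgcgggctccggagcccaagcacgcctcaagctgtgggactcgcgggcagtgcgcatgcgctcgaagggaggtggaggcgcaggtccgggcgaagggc

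The PLIN2 promoter had a GC content of 78.0% and 28 CpG dinucleotides, against medians of 58.0% and 11 over the 35116 promoters of the same length. It held the hypoxia response core, also within CACGTG, an E-box that overlaps that core. ACGTG was found in 18.5% of all promoters and CACGTG in 6.34%. It also held TATAAA, found in 10.7%, and 2 copies of GGGCGG, found in 42.6%. PLIN3 held 2 copies of GGGCGG and 1 of CCAAT (in 32.0% of promoters), and FITM2 held none of the 4. A match describes the letters and not a bound factor. The RefSeq start of PLIN2 lies inside the GENCODE gene, which begins further upstream. The sterol response element spelled TCACNCCAC, was also searched and was found in 0.883% of promoters and, of the droplet genes, in that of PNPLA2. Promoter sequences were matched for 6 of the 10 genes.

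FITM2 was the well-measured droplet gene with the lowest ratio. It encodes an endoplasmic reticulum protein needed for droplets to form and bud towards the cytosol. FITM2 (ENSG00000197296; chromosome 20, 44302840 to 44311202, minus strand) had 638 expected counts with DMSO and 414 with FIN56, an FPKM of 2.01 and 1.25. The FPKM ratio was 0.622, and the count ratio of 0.623 had an interval of 0.549 to 0.706. Its expected counts were whole numbers, and no annotated gene overlapped it. Its level was low in both libraries, and 14.2% of all genes tested had an equal or lower FPKM ratio. It was also below 1/1.5 with TPM values and with each scaling of the counts (0.622 to 0.639), though not with rlog values (0.876) or a pseudocount of 1 FPKM (0.748). FITM1, its muscle paralog, had 7 and 1 expected counts, and the interval of its count ratio, 0.00304 to 1.07, included 1.

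The enzymes of the last step of triglyceride synthesis differed in direction. DGAT1, which esterifies mainly fatty acids that come from outside the cell or from lipolysis, was lower with FIN56. DGAT2, which uses mainly newly made fatty acids and also sits on droplets, was higher. DGAT1 (ENSG00000185000; chromosome 8, 144314584 to 144326910, minus strand) had 2375 and 1785 expected counts, an FPKM of 23.1 with DMSO and 17.6 with FIN56. The FPKM ratio was 0.761, and the count ratio of 0.722 had an interval of 0.679 to 0.768. DGAT2 (ENSG00000062282; chromosome 11, 75759512 to 75801535, plus strand) had 626 and 915 expected counts, an FPKM of 3.79 and 5.18. Its FPKM ratio was 1.37, and the count ratio of 1.40 had an interval of 1.27 to 1.56. Neither gene reached the threshold of 1.5 either way. Because both sit in the same libraries, their ratio to each other does not depend on how the libraries are scaled. The FPKM of DGAT1 was 6.10 times that of DGAT2 with DMSO and 3.39 times with FIN56. By counts the value with FIN56 was 0.514 times that with DMSO, with a 95% counting interval of 0.457 to 0.579. This pair, like the pairs of genes compared below, was chosen after the values were seen, so the interval is a description and not a test. DGAT1 was the more abundant transcript in both libraries. DGAT1 overlaps HSF1, a heat shock factor gene on the opposite strand that had an FPKM of 50.9 with DMSO and 56.7 with FIN56. The expected counts of DGAT1 were not whole, nor were those of HSF1, 6357.55 with DMSO and 7605.11 with FIN56. The division of reads between the 2 genes is therefore uncertain, and the counting intervals do not cover it. Its part in the lower value of DGAT1 was not tested.

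**Figure D3:**
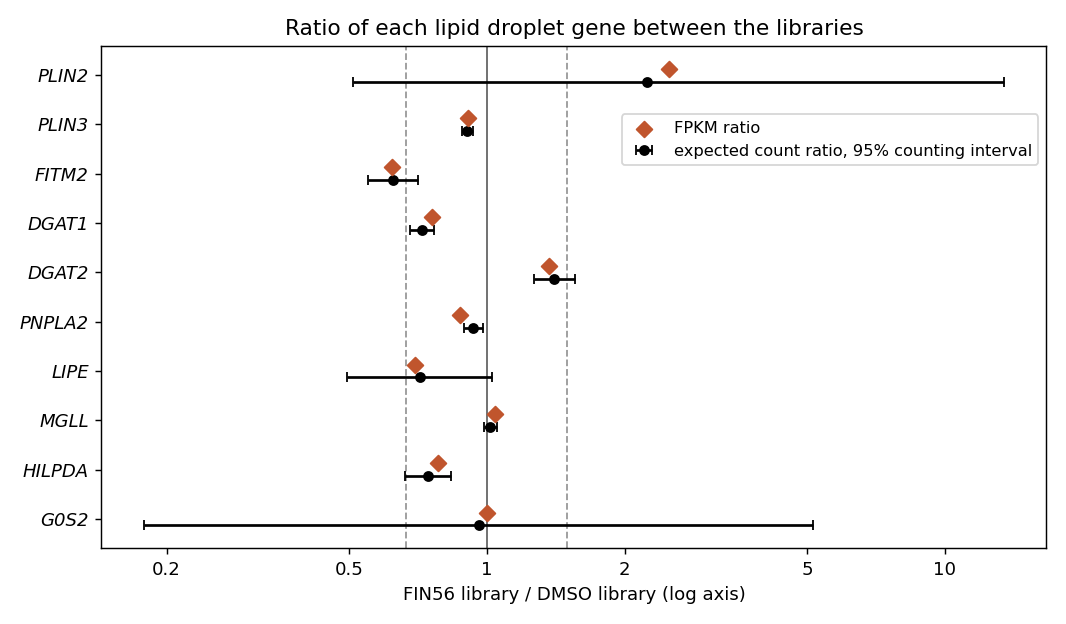
Ratio of the FIN56 to the DMSO library (log axis) for each gene, as the FPKM ratio (diamonds) and the ratio of expected counts with its 95% counting interval (circles and bars), with dashed lines at 1.5 and 1/1.5. FITM2 at 0.622 and PLIN2 at 2.50 lie past the lines, and the interval of PLIN2 spans 0.512 to 13.4.

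The lipases were at similar levels in both libraries where they were well measured. PNPLA2 (ENSG00000177666; chromosome 11, 818914 to 825573, plus strand) had 3363 and 3270 expected counts, an FPKM of 24.3 with DMSO and 21.3 with FIN56. Its FPKM ratio was 0.875, and the count ratio of 0.934 had an interval of 0.890 to 0.980. MGLL, which releases the last fatty acid and also degrades the endocannabinoid 2-arachidonoylglycerol, had 6974 and 7401 expected counts. Its FPKM was 26.1 and 27.3, the ratio 1.04, and the interval of the count ratio, 0.987 to 1.05, included 1. MGLL (ENSG00000074416; chromosome 3, 127689062 to 128052190, minus strand) overlaps SEC61A1 on the opposite strand, which had an FPKM of 112 and 125. LIPE (ENSG00000079435; chromosome 19, 42401514 to 42427388, minus strand) was weakly expressed, with 74 and 55 expected counts and an FPKM of 0.89 and 0.62. Its FPKM ratio was 0.697, just inside the threshold, and the interval of its count ratio, 0.494 to 1.03, included 1. LIPE lies within LIPE-AS1, an antisense RNA gene with 24 and 29 expected counts. The expected counts of MGLL and LIPE were whole numbers, and those of PNPLA2 were not. The kit keeps the strand of the RNA, but whether the counting used it is not given in the sources used here. Reads of genes on opposite strands may therefore be mixed. The counts of DGAT1 and of HSF1 on the opposite strand were fractional in both libraries. The whole counts of MGLL and LIPE showed no reads divided with another gene.

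Of the inhibitors of PNPLA2, HILPDA was expressed and G0S2 was near 0. HILPDA is a hypoxia-induced droplet protein, and G0S2 inhibits the lipase in fat and liver. HILPDA (ENSG00000135245; chromosome 7, 128455849 to 128458418, plus strand) had 667 expected counts with DMSO and 517 with FIN56, an FPKM of 7.79 and 6.09. The FPKM ratio was 0.782, and the count ratio of 0.745 had an interval of 0.663 to 0.837. Its counts were not whole. The gene ENSG00000273184, a long non-coding RNA that overlaps HILPDA on the same strand, had 116 and 152 expected counts, so the division of reads between them is uncertain. G0S2 (ENSG00000123689; chromosome 1, 209675412 to 209676390, plus strand) had 4 expected counts in each library, an FPKM of 0.07 in both, and an interval of the count ratio from 0.179 to 5.16. Within each library the FPKM of PNPLA2 was 3.12 times that of HILPDA with DMSO and 3.49 times with FIN56. By counts the value with FIN56 was 1.25 times that with DMSO, with a counting interval of 1.11 to 1.42.

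Across the 10 genes the FPKM ratio was above 1 for 3, below 1 for 6 and 1 for G0S2. The median log2 FPKM ratio of the 10 was -0.16, and that of all 24454 genes tested was 0. Under the minimum of 10 expected counts the medians were -0.27 for 8 genes and 0.01 for all genes. The counting interval lay below 1 for 5 genes (PLIN3, DGAT1, HILPDA, PNPLA2 and FITM2), above 1 for 1 (DGAT2), and included 1 for the other 4. Among all genes tested it lay below 1 for 23.1% and above 1 for 23.4%. The minimum of 10 expected counts was met by 17372 of these 24454 genes and by 8 of the 10 droplet genes. The shares were not taken under that minimum, so the sets compared differ in depth. At this depth counting error is small for abundant genes, so an interval that leaves out 1 can go with a difference as slight as that of PNPLA2. No estimate of the variation between cultures is at hand.

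**Figure D4:**
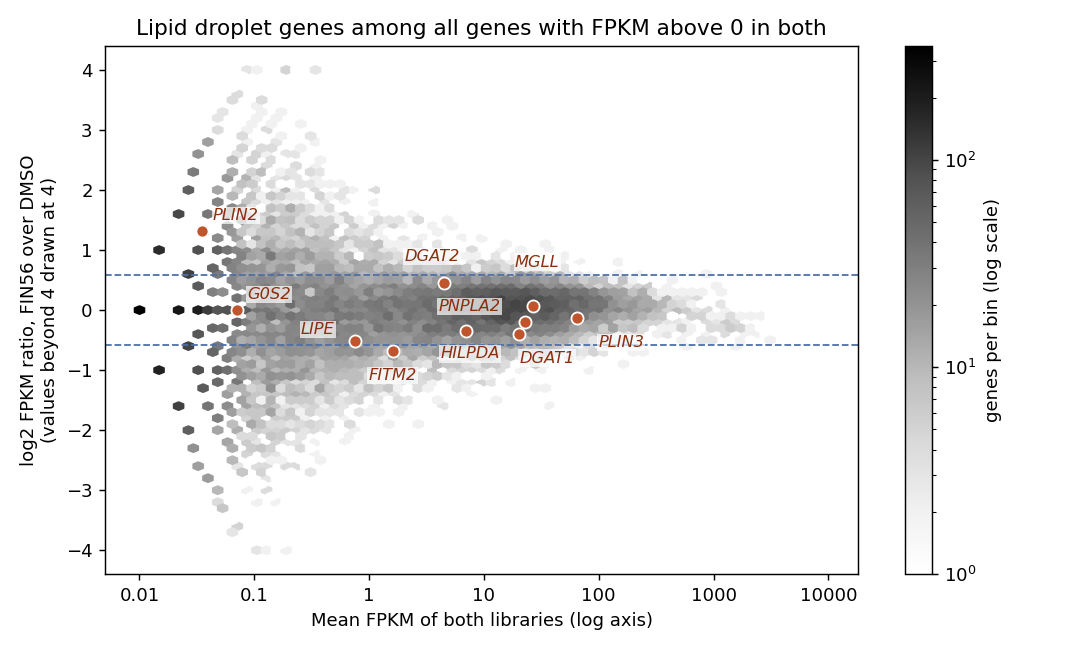
The log2 FPKM ratio of FIN56 over DMSO against the mean FPKM of both libraries (log axis) for 24454 genes, as shaded bins, with the 10 lipid droplet genes as points and dashed lines at ratios of 1.5 and 1/1.5. The ratios of all genes spread widely at low FPKM, where PLIN2 lies at a log2 ratio of 1.32 and G0S2 at 0, and FITM2 lies at -0.69 just past the lower line.

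Among other genes of droplet coat and assembly, a single well-counted one passed the threshold. Of the 19 genes of that list, 16 were detected in both libraries, 1 of which was higher and 5 lower, and under the minimum of 10 expected counts 1 of 11 was higher and none lower. The shares over all genes were 14.7% and 17.3%, and 7.62% and 11.1% under that minimum. The higher gene was LDAH, a droplet-associated hydrolase, which had 1622 expected counts with DMSO and 3581 with FIN56, an FPKM of 11.5 and 20.4. Its FPKM ratio was 1.78, and its count ratio of 2.12 had an interval of 1.999 to 2.25. RAB18, a droplet GTPase, had an FPKM of 89.0 and 103.7, and AUP1, a droplet protein of ubiquitin transfer, 78.2 and 83.1. The 5 lower genes had at most 10 expected counts in either library, and the interval of each included 1. The median log2 FPKM ratio was 0.16 over the 11 genes.

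Upstream enzymes of triglyceride synthesis had ratios on both sides of 1, and LPIN1 was the well-counted one past the threshold. Of 17 genes 13 were detected in both libraries, and under the minimum of 10 expected counts none of 12 was higher and 1 was lower, against 7.62% and 11.1% of all genes. LPIN1 encodes lipin 1, a phosphatidate phosphatase that makes the diacylglycerol used by DGAT1 and DGAT2. It had 5050 expected counts with DMSO and 2874 with FIN56, an FPKM of 16.8 and 9.83, a ratio of 0.585 and a count ratio of 0.547 with an interval of 0.522 to 0.572. LPIN2, its paralog, had an FPKM of 4.37 and 6.02, so that the FPKM of LPIN1 was 3.84 times that of LPIN2 with DMSO and 1.63 times with FIN56. By counts the value with FIN56 was 0.397 times that with DMSO, with an interval of 0.368 to 0.428. This pair too was chosen after its values were seen, so the interval is not a test. The glycerol phosphate acyltransferase genes GPAM (FPKM 5.42 and 7.47) and GPAT4 (40.5 and 56.1) each had a ratio of 1.38, below the threshold. AGPAT1, of the next step, had an FPKM of 36.2 and 29.0. SOAT1, which makes cholesterol esters, had an FPKM of 19.9 in both libraries. The median log2 FPKM ratio was 0.15 over the 12 genes.

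The list of neutral lipid breakdown held no gene past the threshold, with 8 of 12 genes measured in both libraries. All 8 met the minimum of 10 expected counts, under which 7.62% of all genes were higher and 11.1% lower. The median log2 FPKM ratio of the list was -0.10. ABHD5 (CGI-58), the coactivator of PNPLA2, had 2531 and 3474 expected counts and an FPKM of 18.8 and 24.7, a ratio of 1.31. Its partner PNPLA2 had a ratio of 0.875, and the FPKM of PNPLA2 over that of ABHD5 was 1.29 with DMSO and 0.862 with FIN56. By counts the value with FIN56 was 0.708 times that with DMSO, with an interval of 0.660 to 0.760. LIPA, the acid lipase of lysosomes that degrades droplets delivered by autophagy, had an FPKM of 63.3 and 58.8. ABHD12, a lipase of lysophosphatidylserine, had 34.0 and 31.0.

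Of 8 transcription factors that act on droplet genes, all detected in both libraries, 1 was higher and none lower. The higher one had 3 expected counts with DMSO and 1 with FIN56, and the interval of its count ratio included 1. Among all detected genes 14.7% were higher and 17.3% lower. Under the minimum of 10 expected counts 7 were kept and none passed the threshold, against 7.62% higher and 11.1% lower of all genes. HIF1A, the hypoxia factor that acts on HILPDA, had an FPKM of 114 with DMSO and 145 with FIN56, and EPAS1 (HIF-2α) 47.4 and 55.3. PPARG, the factor of fat cells, had an FPKM of 0.29 and 0.33. Of 10 hypoxia target genes, all of which met the minimum of 10 expected counts, none was higher and 3 were lower, against 7.62% and 11.1% of all genes. CA9, a carbonic anhydrase, had an FPKM of 3.10 and 1.49, PFKFB4, a regulator of glycolysis, 5.43 and 2.58, and BNIP3, a mitophagy receptor, 99.8 and 61.9. HILPDA, also known as a hypoxia target, had a ratio of 0.782, which was not past the threshold. NDRG1, with an FPKM of 85.0 and 79.4, and SLC2A1, with 126 and 142, were in the same list, whose median log2 FPKM ratio was -0.03.

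Of 8 PPAR target genes, 4 were measured in both libraries, 1 of which was higher and none lower. All 4 met the minimum of 10 expected counts, under which 7.62% of all genes were higher and 11.1% lower. The higher gene was ANGPTL4, a secreted inhibitor of lipoprotein lipase. It had 62 expected counts with DMSO and 202 with FIN56, an FPKM of 0.50 and 1.78, and a ratio of 3.56. Its count ratio of 3.13 had an interval of 2.34 to 4.23. CPT1A, which brings fatty acids into mitochondria, had an FPKM of 21.0 and 29.3, a ratio of 1.39. ACADVL, an enzyme of fatty acid oxidation, had 179 and 142, a ratio of 0.795. PLIN2, which PPAR factors also induce in many cells, had 3 and 7 expected counts, as given above.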

How the data were processed

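RNA-seq of HSC-3 cells was read from tables of 1 DMSO and 1 FIN56 library. The methods cover tumor samples, and the same steps were taken to hold here. By those methods and the submitters' processing notes, the authors aligned reads with STAR 2.6.1a to GRCh38 (Ensembl release 94) and obtained expected counts with RSEM 1.3.1. The deposited expected counts are estimates and were rounded for intervals. The deposited FPKM values carry 2 decimals and are scaled by depth and by the effective length of each gene in each library, so FPKM and count ratios can differ. The deposited TPM values sum to 1000000. The deposited rlog values are on a log2 scale, from DESeq2 1.26.0.

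FPKM ratios were taken over genes above 0 in both libraries, and count ratios over library totals with Clopper-Pearson intervals (95%). Reads are not independent molecules, so intervals cover counting error only. Intervals for the change of a ratio between a pair of genes used the normal approximation on log counts. Count ratios and their intervals were checked on counts simulated with counting error only, for genes with at least 100 counts. FPKM ratios and genes with fewer counts were not simulated. Positions and overlaps came from GENCODE release 44 on GRCh38. The 10 genes and the lists were chosen with earlier results of these data known. From the other lists, the text names genes past the threshold with an interval that leaves out 1 and at least 100 counts in both libraries together, and up to 2 of the most abundant others. PLIN1, PLIN4, PLIN5, FITM1, ABHD5, GPAM, LPIN2, SOAT1, PPARG, FABP4, CD36, LIPG, the marker genes, the overlapping genes, the genes near PLIN2 and the 5 pairs of genes compared were chosen after their values were seen. Alternatives were TPM, rlog, edgeR 4.0.16 TMM, DESeq2 1.42.0 size factors, library totals, pseudocounts of 0.1 and 1 FPKM, a threshold of 2 and minimum values. Python 3.11.15, scipy 1.17.1 and R 4.3.3 were used.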

Additional observations from a re-analysis of the deposited data

How the results depend on the processing

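No paired analysis was possible because there was a single library of either kind, so no replicate could be left out. Of the 10 lipid droplet genes 1 was called higher, PLIN2, and this count was 0 with rlog values, with a pseudocount of 0.1 or 1 FPKM, for genes reaching 1 FPKM in each library, and under a minimum of 10 expected counts. Those minimums leave PLIN2 out by construction. The count of lower genes was 1, FITM2, and it was 0 with rlog values, with a pseudocount of 1 FPKM and at a threshold of 2. The median log2 ratio of all 10 genes was -0.16 and stayed below 0 under the 7 alternatives of unit, scaling and pseudocount, up to -0.03. It was -0.19 over the 7 genes reaching 1 FPKM in each library and -0.27 over the 8 with the minimum of 10 expected counts. DGAT1, HILPDA, LIPE, FITM2, PLIN3 and PNPLA2 were below 1 and DGAT2 and MGLL above 1 under all 7 alternatives of unit, scaling and pseudocount, and neither DGAT gene reached the threshold under any. The lowest ratio of DGAT1 was 0.721 (TMM) and the highest of DGAT2 1.44 (size factors). Over all genes, 3583 were higher and 4240 lower. These counts were 7 and 16 with rlog values, 476 and 785 with a pseudocount of 1 FPKM, 2088 and 2384 at a threshold of 2, 489 and 855 for genes reaching 1 FPKM in each library, and 1323 and 1936 under the minimum of 10 expected counts. Higher genes made up 45.8% of all called genes, and 30.4% with rlog values, which draw libraries together. Depth limits PLIN2 and G0S2, with under 10 counts in each library, and LIPE.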

Other observations

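Genes of fatty acid uptake and carriage were looked at beside the droplet genes, and 9 of 10 were detected in both libraries, 1 of which was higher (LIPG) and 2 lower (SLC27A1 and FABP4, the latter with 2 and 1 expected counts). Of all genes detected in both libraries 14.7% were higher and 17.3% lower. FABP5, the fatty acid carrier of squamous epithelium, had an FPKM of 124.7 with DMSO and 145.3 with FIN56. SLC27A1 (FATP1), a fatty acid transporter with acyl-CoA synthetase activity, had 564 and 339 expected counts and an FPKM of 2.47 and 1.49. Its FPKM ratio was 0.603, and the count ratio of 0.577 had a 95% counting interval of 0.503 to 0.662. SLC27A4, the more abundant transporter of this family, had an FPKM of 17.6 and 18.9. CD36, the scavenger receptor that takes up fatty acids in fat and muscle, had 3 and 11 expected counts. The median log2 FPKM ratio of the list was 0.10. LIPG encodes endothelial lipase. Its 27 and 34 expected counts gave a count ratio of 1.21 with an interval of 0.708 to 2.08, beside an FPKM ratio of 1.93.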
